A study of Mus musculus with 6 samples.

Results

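The transcripts described here are those of 46 genes of the lysosome and of the vacuolar proton pump (V-ATPase), taken from the 52636 genes of a table of transcript levels in mouse bone marrow neutrophils. The genes were chosen by symbol, as lysosomal hydrolases, lysosomal membrane proteins, the transcription factors TFEB and TFE3, and the subunits of the V-ATPase, and the proteases of the azurophil granules were left out. All 46 genes had a mean of at least 1 TPM (transcript level scaled for gene length and for the total of the library) over the libraries, which is the limit for testing, and 9775 genes in all were tested.

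The libraries came from C57BL/6N mice of 10 weeks, with 3 libraries of wild-type (WT) neutrophils and 3 of neutrophils of genotype LRP5f/f/Lyz2Cre+ (LRP5-KO). LRP5 is a receptor of the low-density lipoprotein receptor family, best known as a co-receptor for Wnt proteins, and the study asked what its loss in myeloid cells does to neutrophils. In the LRP5-KO mice a Cre recombinase placed in the lysozyme gene Lyz2 cuts the floxed Lrp5 allele, and Lyz2 is active in monocytes and macrophages as well as in neutrophils, so that the deletion is myeloid and not confined to neutrophils. The labels name no Cre and no floxed allele for WT, so an effect of Cre insertion cannot be told apart from that of Lrp5 loss, and nothing states that the libraries of a group came from separate mice, so that the p-values measure the spread between these libraries, which may be technical.

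Lysosomes are acidic organelles in which hydrolases of many kinds break down proteins, sugars and lipids. The V-ATPase acidifies them: its V1 sector in the cytosol splits ATP, and its V0 sector in the membrane carries the protons. The pump is also part of the platform on which the growth kinase complex mTORC1 senses amino acids, and TFEB and TFE3, which mTORC1 holds in the cytosol, switch on many lysosomal genes through promoter elements with the core CACGTG. In neutrophils the azurophil granules are close relatives of lysosomes and carry several of the same hydrolases.

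The CACGTG core is shown first because it ties several of these genes together at the level of sequence. RefSeq promoters (GRCm38.p6), each of 300 bases from 250 before to 50 after a gene's start, were given for 38 of the 46 genes, as 45 promoters, and the other 8 genes (Npc1, Ctsb, Ctsh, Asah1, Atp6v1b2, Atp6v1c1, Atp6v1g1 and Atp6v1h) were not in that table. Of these genes, 13 of 38 (34.2%) held CACGTG on at least 1 promoter, against 8.09% of all 27025 genes with a promoter of that length. The word is not particular to the 46: of 50 other lysosomal genes with such a promoter, 26% held it. CACGTG reads the same on both strands, so that each site counts for both. The longer word TCACGTGA contains CACGTG and is also its own reverse complement. It stood in 15.6% of the 45 promoters, in 14.8% of the 61 promoters of the other lysosomal genes and in 0.974% of all 32851. A still longer word, with a G before TCACGTGA and a C after it, was also counted. That word stood in 0 of the 45 promoters, in 3.28% of the 61 promoters of the other lysosomal genes and in 0.326% of all 32851. It is so rare that its absence from 45 promoters cannot show depletion. The stretches below are those of the 5 genes that held CACGTG and had an unadjusted p under 0.05 between genotypes. Lamp1 is added, whose promoter had 4 copies, the most of any of the 38 genes with a listed promoter. Capitals mark CACGTG, and each stretch is printed 5′ to 3′ on the strand of its gene.
Mcoln1, chr8:3500436-3500491, plus strand: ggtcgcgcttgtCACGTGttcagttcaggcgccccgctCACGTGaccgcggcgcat
Gaa, chr11:119267811-119267840, plus strand: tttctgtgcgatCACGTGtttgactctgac
Naglu, chr11:101070009-101070038, plus strand: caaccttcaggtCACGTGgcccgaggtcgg
Ctsl, chr13:64370739-64370768, minus strand: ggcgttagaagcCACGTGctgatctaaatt
Atp6v1a, chr16:44139373-44139402, minus strand: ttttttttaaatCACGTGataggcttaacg
Lamp1, chr8:13159088-13159163, plus strand: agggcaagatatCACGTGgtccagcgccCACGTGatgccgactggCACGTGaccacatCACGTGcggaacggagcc

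The libraries held 249841492 to 340580330 reads, of which 99.37% to 99.51% lay on the expected strand. The neutrophil label fits the markers: S100a8, which encodes a calcium-binding protein that fills the neutrophil cytosol, was at 106912 to 151287 TPM, and Ly6g, the surface marker of mouse neutrophils, at 920.2 to 1104 TPM in all 6 libraries. Lrp5 itself was not lower in LRP5-KO. It was at 1.12, 1.31 and 1.42 TPM in WT and at 1.68, 1.77 and 2.07 TPM in LRP5-KO, and the table gives levels of the whole gene and not of the deleted part, so that the directions below rest on the sample labels. Lyz2, the gene that carries Cre, was at 24797 to 26791 TPM in WT and at 13359.7 to 14027 TPM in LRP5-KO (log2 fold change of -0.91, adjusted p = 0.00351). WT replicate 3 stood apart from the other WT libraries. Its ribosomal RNA share was 3.3%, against 1.2% and 1.3% in the other WT libraries and 2.69% to 2.98% in LRP5-KO, and its values went up with the GC content of genes, as those of LRP5-KO did (Spearman 0.373, against 0.331 to 0.437 in LRP5-KO and -0.611 and -0.433 in WT replicates 1 and 2, each over 8769 genes, on the deviation from the mean of all libraries). Of the 9775 genes, 62.3% had WT replicate 3 nearer to the LRP5-KO mean than to the mean of the other WT libraries, and of the 46 genes 56.5% did. The counts are therefore given with and without this library, as are the genes that it moved most. Without WT replicate 3, the WT libraries left differ from LRP5-KO in ribosomal share and GC trend as well. Values without that library therefore cannot tell genotype apart from these differences. With all 6 libraries, ribosomal share and GC trend still differ in part along with genotype. Values after removal of the trends, or with the ribosomal share as a covariate, may therefore have lost part of a genotype difference too.

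No lysosomal or V-ATPase gene passed the test between LRP5-KO and WT, and the genes did not move together. At an adjusted p under 0.05 (limma on log2(TPM + 1), Benjamini-Hochberg over 9775 genes), 0 of the 46 genes were called, where 52 of all genes tested, or 0.532%, were. At an unadjusted p under 0.05, 13 of the 46 (28.3%) were past the threshold, 7 higher and 6 lower in LRP5-KO, beside 23.5% of all genes tested, 14.4% higher and 9.12% lower. The genes past it and higher were Gaa, Naglu, Gusb, Mcoln1, Npc1, Tfe3 and Atp6v1f, and those lower were Ctsl, Lamp2, Atp6v1d, Atp6v1a, Atp6v1b2 and Atp6ap2. In 15 of the 46 (32.6%) the 3 LRP5-KO libraries lay wholly above (9 genes) or wholly below (6 genes) the WT libraries, a pattern that 29.7% of all genes tested had, 17.4% above and 12.3% below. These shares are near those of all genes. The median log2 fold change was 0.034 over the 46 genes and 0.040 over all genes tested, with a range of -0.57 to 0.48 within the 46, and 26 were above 0 and 20 below.

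**Figure D1:**
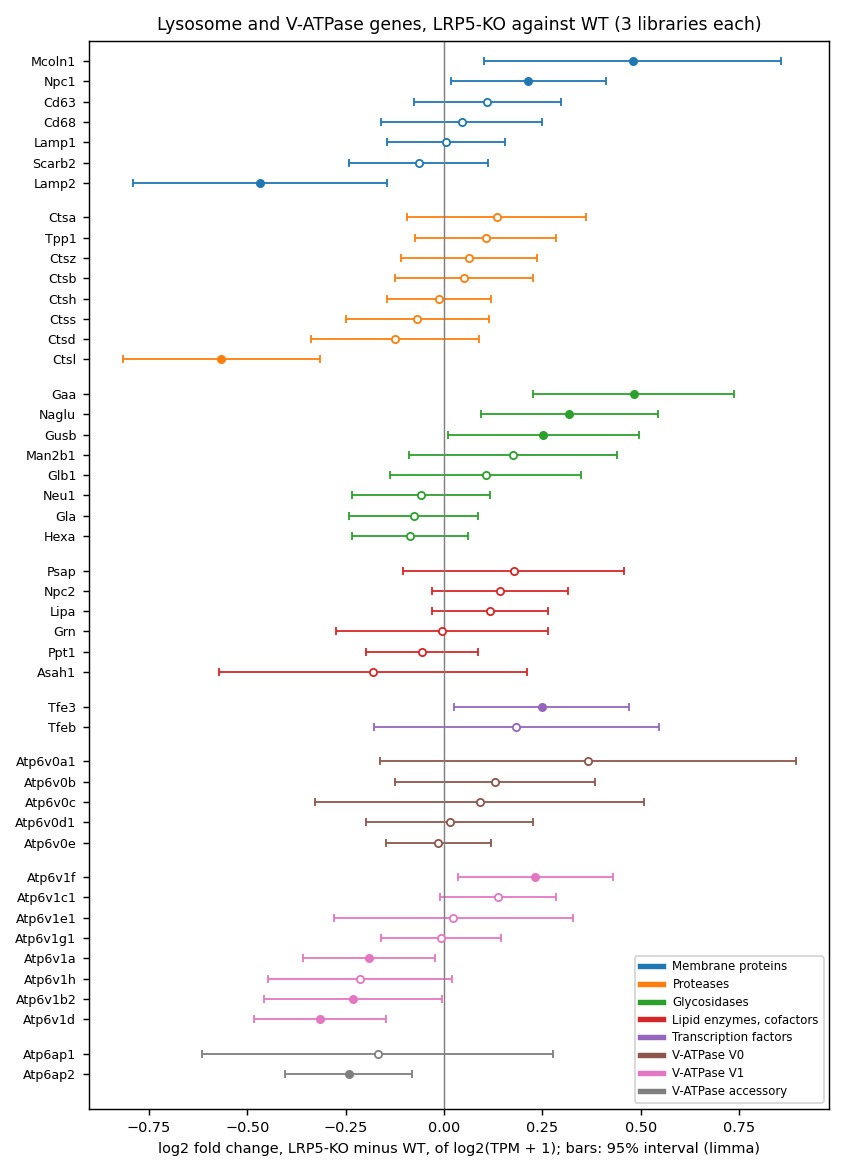
Fold change of each of the 46 genes, grouped by role. The x axis gives the log2 fold change between LRP5-KO and WT on the log2(TPM + 1) scale, and bars are 95% intervals from limma. Filled points have an unadjusted p under 0.05 (7 higher, 6 lower). None has an adjusted p under 0.05. The points run from -0.57 (Ctsl) to 0.48 (Gaa, Mcoln1).

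As a set these were well expressed genes. Their mean levels over the 6 libraries ran from 1.54 to 807 TPM with a median of 69.5 TPM, against a median of 11.8 TPM over all genes tested, and 42 of the 46 lay above that median. Of the 46, 18 were among the 10% of genes with the highest level, and only Gaa, Naglu and Glb1, all glycosidases, were under 5 TPM. The 5 most abundant held 41.5% of the summed level. The summed level of all 46 was 5302 to 5807 TPM in WT and 5444 to 5502 TPM in LRP5-KO, and that of the 15 V-ATPase genes 1966 to 2164 TPM and 2008 to 2074 TPM. The LRP5-KO range lay inside the WT range in both.

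The membrane proteins were 7 genes with a median log2 fold change of 0.045. At an unadjusted p under 0.05, 2 were higher and 1 was lower, beside 14.4% and 9.12% of all genes tested. Lamp2 encodes a heavily glycosylated protein that lines the lysosomal membrane, and 1 of its splice forms is the receptor of chaperone-mediated autophagy. It was at 282, 246 and 187 TPM in the WT libraries and at 169.8, 171 and 167 TPM in the LRP5-KO libraries. The LRP5-KO libraries were tightly grouped below all WT libraries, and WT replicate 3 was the WT library nearest to them. Lamp2 (ENSMUSG00000016534, X chromosome, 35754534 to 35809631 on the minus strand of NCBIM37) had a log2 fold change of -0.47 (SE 0.14, adjusted p = 0.132), which was -0.63 without WT replicate 3 (adjusted p = 0.0103) and -0.14 against WT replicate 3 alone. It was -0.22 after removal of each library's trends in GC content and length, and -0.25 with the ribosomal share as a covariate.

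Mcoln1 encodes the calcium channel TRPML1 of the lysosomal membrane, whose calcium release activates TFEB. It was at 5.21, 6.73 and 8.81 TPM in WT and at 9.02, 9.9 and 10.7 TPM in LRP5-KO. The groups did not overlap, with WT replicate 3 just below the lowest LRP5-KO library. Its log2 fold change was 0.48 (SE 0.16, adjusted p = 0.154), 0.65 without WT replicate 3 (adjusted p = 0.0202) and 0.15 against that library alone. Npc1, the membrane protein that passes cholesterol out of the lysosome, was at 12, 11.9 and 13.7 TPM in WT and at 13.9, 14.5 and 15.5 TPM in LRP5-KO. The groups again lay side by side without overlap, with a log2 fold change of 0.21 (SE 0.085, adjusted p = 0.19). Cd63, a tetraspanin of lysosomes and azurophil granules, was at 314, 292 and 281 TPM in WT and at 329.5, 337 and 292 TPM in LRP5-KO, and the groups overlapped (log2 fold change of 0.11, adjusted p = 0.43). Its annotated copy Cd63-ps was at no more than 0.414 TPM, and how reads were divided between them is not given in the sources used here. Lamp1 (151 to 166 TPM), the scavenger receptor family member Cd68 (52.2 to 62.9 TPM) and Scarb2, which carries glucocerebrosidase to the lysosome (15.8 to 18.4 TPM), had log2 fold changes between -0.065 and 0.045.

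Among the proteases (8 genes, median 0.019), Ctsl was the single gene past an unadjusted p of 0.05, beside 23.5% of all genes tested. It had the smallest p of all 46 genes. Ctsl encodes cathepsin L, a cysteine protease of endosomes and lysosomes. It was at 98.9, 79.3 and 74.6 TPM in WT (84.3 ± 12.9, SD, n = 3) and at 55.7, 56.6 and 56.2 TPM in LRP5-KO (56.2 ± 0.47, SD, n = 3). The LRP5-KO libraries were nearly equal and all below the lowest WT library, WT replicate 3. The log2 fold change of Ctsl (ENSMUSG00000021477, chromosome 13, 64464522 to 64471614, minus strand, NCBIM37) was -0.57 (SE 0.11, adjusted p = 0.0675). It was past the threshold under 2 of the 18 alternatives: without WT replicate 3 (-0.65, adjusted p = 0.0144) and after the trends in GC content and transcript length were taken out (-0.50, adjusted p = 0.0299). Over all 18, its adjusted p ran from 0.0144 to 0.26, and its fold change was -0.40 against WT replicate 3 alone.

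Ctsd, the aspartic protease cathepsin D and the most abundant of the 46 genes, was at 734, 872 and 926 TPM in WT and at 785, 747 and 779 TPM in LRP5-KO. The LRP5-KO libraries lay within the WT range (log2 fold change of -0.13, adjusted p = 0.434). Ctsh, cathepsin H, varied little, at 154, 152 and 151 TPM in WT and 151, 152 and 149 TPM in LRP5-KO, with a 95% interval of the log2 fold change from -0.15 to 0.12. Ctsa, the protective protein that holds neuraminidase and β-galactosidase together, was at 28.9, 32.8 and 37.1 TPM in WT and at 36.5, 34.9 and 36.8 TPM in LRP5-KO. Its groups overlapped through WT replicate 3, the highest library of all. Tpp1, a tripeptidyl peptidase, was at 12.6, 11.5 and 12.3 TPM in WT and at 12.9, 12.6 and 14 TPM in LRP5-KO, with a log2 fold change of 0.11 (adjusted p = 0.429). The remaining cathepsins Ctsb (63.7 to 73.3 TPM), Ctss (29.3 to 34.1 TPM) and Ctsz (50.4 to 56.5 TPM) had log2 fold changes between -0.068 and 0.063.

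The glycosidases (8 genes, median 0.14) had 3 of 8 genes higher and none lower at an unadjusted p under 0.05, beside 14.4% and 9.12% of all genes tested. The 2 with the smallest p were the 2 of lowest level. Gaa encodes the acid α-glucosidase that breaks down glycogen in lysosomes. It was at 1.11, 0.96 and 1.28 TPM in WT and at 1.64, 2.3 and 1.95 TPM in LRP5-KO. All LRP5-KO libraries were above all WT libraries, including WT replicate 3, and the log2 fold change of Gaa (ENSMUSG00000025579, chromosome 11, 119129201 to 119146768, plus strand, NCBIM37) was 0.48 (SE 0.11, adjusted p = 0.0907). With a pseudocount of 1 TPM at such levels this understates the ratio of the means, which was 1.76. Naglu, which removes N-acetylglucosamine from heparan sulfate, was at 2.11, 2.06 and 2.59 TPM in WT and at 2.97, 2.86 and 3.33 TPM in LRP5-KO. Here too the groups did not overlap (log2 fold change of 0.32, SE 0.096, adjusted p = 0.137).

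Gusb, β-glucuronidase, which is also stored in azurophil granules, was at 17, 18.6 and 22.1 TPM in WT and at 21.8, 23.1 and 24.1 TPM in LRP5-KO. WT replicate 3 lay above the lowest LRP5-KO library, so that the groups overlapped (log2 fold change of 0.25, adjusted p = 0.202), and the log2 fold change was 0.35 without WT replicate 3 and 0.054 against that library alone. Man2b1, lysosomal α-mannosidase, was at 135, 146 and 181 TPM in WT and at 163, 172 and 183 TPM in LRP5-KO, again with WT replicate 3 among the LRP5-KO libraries (log2 fold change of 0.17, adjusted p = 0.38). Its log2 fold change was 0.30 without WT replicate 3 (adjusted p = 0.038) and -0.068 against that library alone. Hexa, the α subunit of β-hexosaminidase, was at 159, 160.4 and 172 TPM in WT and at 153, 152 and 157 TPM in LRP5-KO. All LRP5-KO libraries lay below, by little. Its log2 fold change was -0.086 (SE 0.063, adjusted p = 0.436), and -0.18 once GC and length trends were taken out (adjusted p = 0.0455). Of the others, Gla was at 16.2 to 18.2 TPM, Glb1 at 3.29 to 4.17 TPM and Neu1 at 67.9 to 78.8 TPM, with log2 fold changes between -0.077 and 0.11.

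None of the 6 genes of lipid breakdown and its cofactors (median 0.056) had an unadjusted p under 0.05. The LRP5-KO libraries lay wholly above WT in 2 of the 6, as they did in 17.4% of all genes tested. Psap, from which the saposins that present sphingolipids to their enzymes are cut, was at 461, 535 and 647 TPM in WT and at 584, 609.9 and 647 TPM in LRP5-KO. WT replicate 3 matched the highest LRP5-KO library (log2 fold change of 0.18, adjusted p = 0.4), and the log2 fold change was 0.30 without WT replicate 3 (adjusted p = 0.0465) and -0.078 against that library alone. Npc2, the soluble carrier that hands cholesterol to NPC1, was at 38.2, 41.7 and 44 TPM in WT and at 45.7, 45.6 and 45.4 TPM in LRP5-KO. Lipa, the acid lipase that frees cholesterol and fatty acids from their esters, was at 42.2, 42 and 42.9 TPM in WT and at 44.6, 46.3 and 47.1 TPM in LRP5-KO. Both lay higher in every LRP5-KO library, with log2 fold changes of 0.14 for Npc2 (adjusted p = 0.287) and 0.12 for Lipa (adjusted p = 0.303). Grn, progranulin, was at 92.1, 97.4 and 120.0 TPM in WT and at 98.6, 113 and 95.6 TPM in LRP5-KO, with a 95% interval of the log2 fold change from -0.27 to 0.26. The acid ceramidase gene Asah1 (64.5 to 101 TPM) and the palmitoyl thioesterase gene Ppt1 (88.5 to 95.4 TPM) had log2 fold changes between -0.18 and -0.056. Asah1 turned on 1 library: its log2 fold change was -0.38 without WT replicate 3 (adjusted p = 0.0297) and 0.22 against that library alone.

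The transcription factor genes lay above WT by their means. Tfe3 was at 45, 46.8 and 37.6 TPM in WT and at 48.7, 52 and 53 TPM in LRP5-KO. The groups did not overlap, and here WT replicate 3 was the WT library farthest from LRP5-KO (log2 fold change of 0.25, SE 0.095, adjusted p = 0.181). After removal of the trends in GC content and length the log2 fold change of Tfe3 was 0.13. Tfeb was at 26.7, 22.8 and 36.2 TPM in WT and at 30.6, 31.6 and 34 TPM in LRP5-KO. WT replicate 3 was the highest of all libraries, and the log2 fold change of Tfeb was 0.18 with all libraries (adjusted p = 0.5), 0.36 without WT replicate 3 (adjusted p = 0.0387) and -0.17 against that library alone. These are transcript levels. TFEB and TFE3 are controlled mainly by phosphorylation and location, which were not measured in these libraries.

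**Figure D2:**
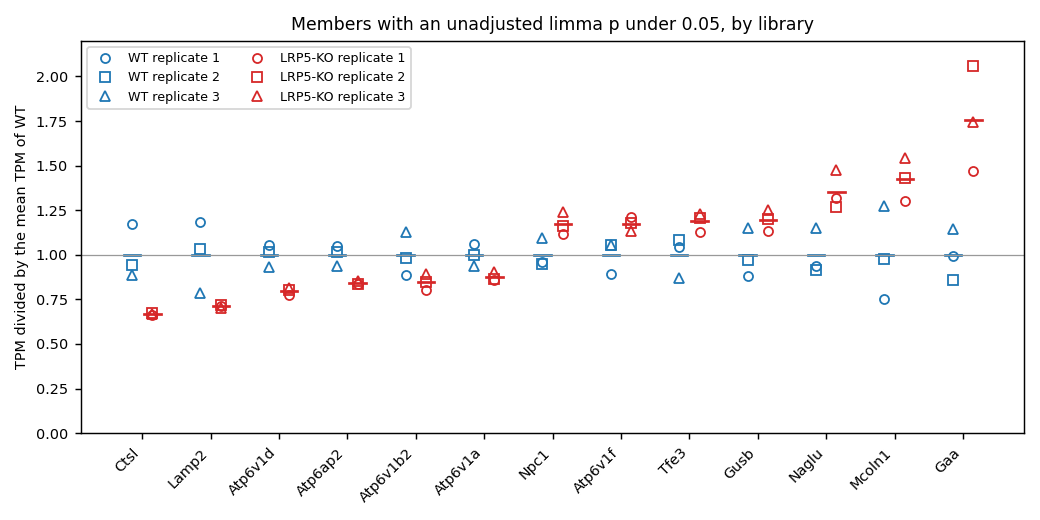
Levels by library of the 13 genes with an unadjusted p under 0.05, from the lowest to the highest fold change. The y axis gives TPM divided by the mean of the 3 WT libraries, blue marks are WT, red marks LRP5-KO, the shape gives the replicate, and short bars are group means. WT replicate 3 (blue triangles) is the WT library nearest to LRP5-KO for Lamp2 and Mcoln1 and the farthest for Tfe3 and Atp6v1b2.

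None of the 5 V0 genes (median 0.090) had an unadjusted p under 0.05 and all overlapped between genotypes. Of the 8 V1 genes (median -0.099), 1 was higher and 3 were lower, beside 14.4% and 9.12% of all genes tested. The 15 V-ATPase genes together had a median of -0.0078. The difference between the sectors was not tested, and against WT replicate 3 alone the medians were -0.087 for V0 and 0.022 for V1. Atp6v1d encodes subunit D of the central stalk that turns inside V1. It was at 50.8, 48.9 and 45 TPM in WT and at 37.5, 38.8 and 39.3 TPM in LRP5-KO, with all LRP5-KO libraries below. Atp6v1d (ENSMUSG00000021114, chromosome 12, 79941712 to 79962625, minus strand, NCBIM37) had a log2 fold change of -0.32 (SE 0.072, adjusted p = 0.0938), which was -0.36 without WT replicate 3 (adjusted p = 0.0176) and -0.22 against that library alone. After removal of the trends in GC content and length it was -0.18. Atp6v1f, subunit F of the same stalk, went the other way, at 136, 162 and 162 TPM in WT and 186, 180.2 and 173 TPM in LRP5-KO (log2 fold change of 0.23, SE 0.084, adjusted p = 0.168). With those trends removed its log2 fold change was 0.078.

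The catalytic head of V1 is made of alternating A and B subunits. Atp6v1a, subunit A, which binds and splits ATP, was at 80.5, 75.8 and 71 TPM in WT and at 65, 65.3 and 68.3 TPM in LRP5-KO. All LRP5-KO libraries were below all WT libraries (log2 fold change of -0.19, SE 0.072, adjusted p = 0.178). Atp6v1b2, subunit B, was at 186, 206 and 236 TPM in WT and at 168, 178 and 188 TPM in LRP5-KO. WT replicate 1 lay within the LRP5-KO range, and WT replicate 3 was farthest above it (log2 fold change of -0.23, SE 0.097, adjusted p = 0.207). Atp6v1g1, subunit G of the outer stalks, had the highest level of the pump's genes, at 332, 332 and 299.6 TPM in WT and 323, 320.2 and 314 TPM in LRP5-KO, with a 95% interval of the log2 fold change from -0.16 to 0.15. Atp6v1c1 (33.9 to 38.3 TPM), Atp6v1e1 (163 to 224 TPM) and Atp6v1h (16.1 to 21.6 TPM) had log2 fold changes between -0.21 and 0.14, and of these 3 genes the groups did not overlap for Atp6v1c1, which was higher in LRP5-KO. Within V1, the mean level of the most abundant gene was 17.2 times that of the least abundant, and within V0 it was 5.75 times, although the complex holds its subunits in fixed numbers.

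In V0, Atp6v0a1, a form of the large subunit a, which steers the pump to its membrane, was at 33.8, 33.7 and 54.5 TPM in WT and at 38.9, 57.6 and 60 TPM in LRP5-KO. WT replicate 3 sat with the high LRP5-KO libraries and LRP5-KO replicate 1 with the low WT libraries, and the log2 fold change was 0.36 with the widest error of the 46 genes (SE 0.23, adjusted p = 0.361). Atp6v0c, subunit c of the proton-carrying ring, was at 100.3, 133 and 172 TPM in WT and at 152, 129.7 and 140.1 TPM in LRP5-KO. The WT spread enclosed the LRP5-KO spread (log2 fold change of 0.090, adjusted p = 0.791), and its annotated copy Atp6v0c-ps1 was at no more than 0.17 TPM. Atp6v0b, another ring subunit, was at 216, 262 and 289 TPM in WT and 289.5, 266 and 278 TPM in LRP5-KO (log2 fold change of 0.13, adjusted p = 0.497). Atp6v0e was at 247, 239 and 244 TPM in WT and 246, 235 and 240.4 TPM in LRP5-KO, with a 95% interval from -0.15 to 0.12, and Atp6v0d1, which joins ring and stalk, was at 139 to 173 TPM.

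The accessory genes were Atp6ap1 and Atp6ap2, which help to assemble the pump. Atp6ap2, also known as the prorenin receptor, was at 57.3, 55.7 and 51.3 TPM in WT and at 45.8, 45.9 and 46.6 TPM in LRP5-KO. The LRP5-KO libraries were tightly grouped below WT (log2 fold change of -0.24, SE 0.069, adjusted p = 0.127), and the fold change was -0.29 without WT replicate 3 (adjusted p = 0.0234) and -0.050 after removal of the trends in GC content and length. Atp6ap1 was at 136, 85 and 141 TPM in WT and at 94.2, 116 and 104 TPM in LRP5-KO, where WT replicate 2 was the lowest of all libraries (log2 fold change of -0.17, adjusted p = 0.615).

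Several V-ATPase subunits have more than 1 gene, and neutrophils used nearly a single form of most. For subunit a, Atp6v0a1 made up 44.8% to 56.1% of the summed TPM of the subunit's genes in the 6 libraries, Tcirg1, the form known from osteoclasts, 29.9% to 38.5% and Atp6v0a2 12% to 18.9%, and Atp6v0a4, known from kidney, was listed at 0. Atp6v0d1 made up 99.8% to 99.9% of subunit d, with Atp6v0d2 at 0.1 to 0.239 TPM. Atp6v1g1 made up 99% to 99.6% of subunit G. Atp6v0e2, Atp6v1b1, Atp6v1e2 and Atp6v1g3 were listed at 0 in all libraries, and Atp6v1c2 was at no more than 0.0653 TPM. The ranges of these shares cover both genotypes.

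**Figure D3:**
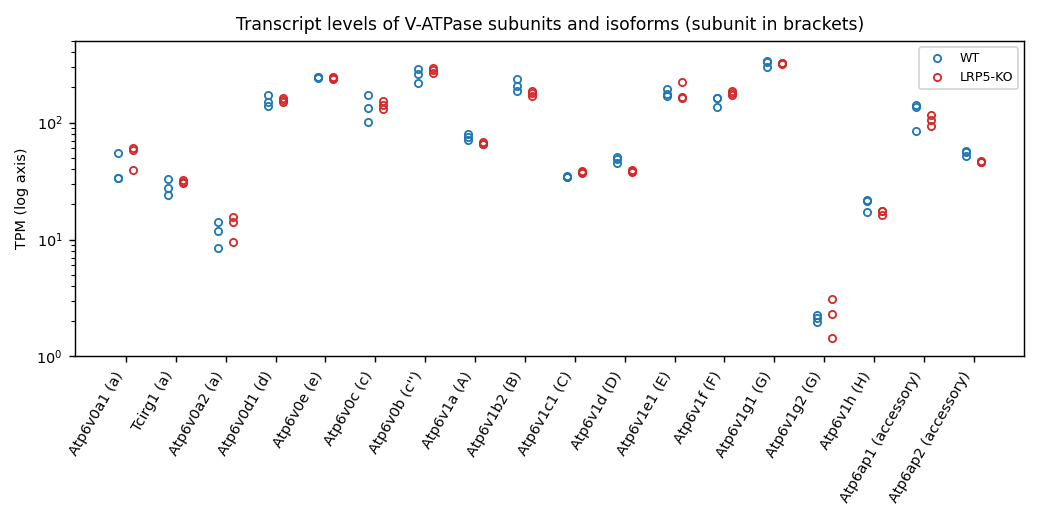
Levels of the V-ATPase genes and of the other forms of their subunits that were above 1 TPM, by genotype. The y axis is TPM on a log scale, each point is a library, and the subunit is given in brackets after the gene. The levels run from 1.43 TPM (Atp6v1g2) to 332 TPM (Atp6v1g1), and the LRP5-KO points lie below all WT points for Atp6v1a, Atp6v1d and Atp6ap2 and above all WT points for Atp6v1c1 and Atp6v1f.

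Genes with the promoter word and genes without it both included higher and lower ones. The 13 genes with CACGTG had a median log2 fold change of 0.014, from -0.57 (Ctsl) to 0.48 (Gaa), with 3 higher and 2 lower at an unadjusted p under 0.05. The 25 genes whose listed promoters lacked it had a median of 0.063, with 3 higher and 3 lower. Of all genes tested, 14.4% were higher and 9.12% lower at that threshold. The difference between genes with and without the word was not tested, and counts this small cannot show or exclude one. Mcoln1, Gaa and Naglu, whose sites are printed above, were among the higher genes, and Ctsl and Atp6v1a, also printed, among the lower.

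The fold changes followed the GC content of the transcripts. Over the 46 genes, Spearman's rho between log2 fold change and the GC content of the longest coding transcript was 0.63, and over 8769 genes tested it was 0.49, where all points come from the same 6 libraries. The 7 genes that were higher at an unadjusted p under 0.05 had a GC content of 50.2% to 59.8% and the 6 that were lower 38.7% to 50.4%, around a median of 51.3% for the 46 genes. With each library's trends in GC content and length removed, rho was 0.26 over the 46 genes, and 2 of them had an adjusted p under 0.05, Ctsl and Hexa, both lower, where 4.9% of 8769 genes were called, 1.79% higher and 3.11% lower. Intronic reads also differed by genotype, at 7.78% to 9% of reads in WT and 10.62% to 11.23% in LRP5-KO (p = 0.1 by a two-sided exact permutation test, below which 3 against 3 libraries cannot go).

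**Figure D4:**
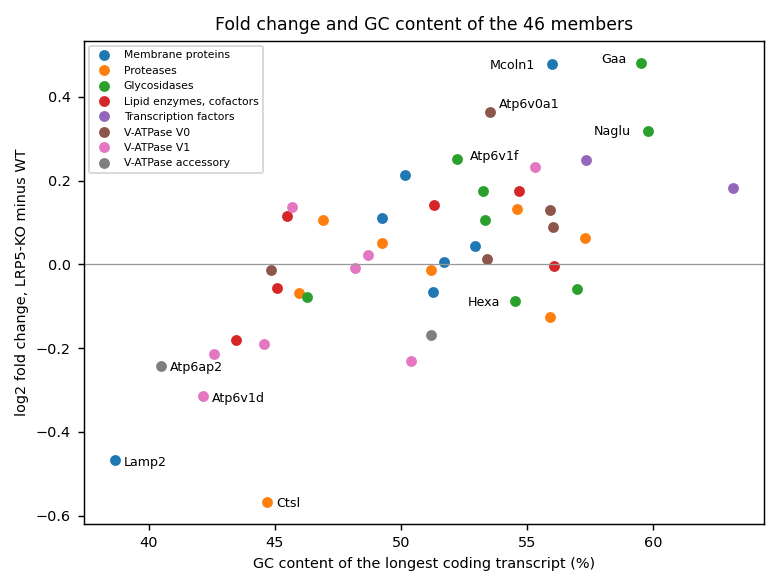
Log2 fold change between LRP5-KO and WT (y axis) against the GC content in percent of the longest coding transcript (x axis), with 1 point for each of the 46 genes coloured by role. Spearman's rho is 0.63. Lamp2, with the lowest GC content (38.7%), is at -0.47, and Gaa, at 59.5%, is at 0.48.

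Leaving out WT replicate 3, after which genotype cannot be told apart from ribosomal share and GC trend, changed the count most. Without it, 15 of the 46 genes had an adjusted p under 0.05, 8 higher (Gaa, Gusb, Man2b1, Mcoln1, Naglu, Npc1, Psap and Tfeb) and 7 lower (Asah1, Atp6ap2, Atp6v1a, Atp6v1d, Atp6v1h, Ctsl and Lamp2), where 19.6% of all genes tested were called, 12.1% higher and 7.57% lower. Of these 15 genes, 10 were among the 13 with an unadjusted p under 0.05 when all libraries were used. Against WT replicate 3 alone, which the fit treats as varying like the LRP5-KO libraries, these 13 had log2 fold changes of -0.41 to -0.099 for the lower and 0.054 to 0.43 for the higher genes. In 11 of the 13 the groups do not overlap, which fixes this side in advance. Of the 46 genes, 15 lay on the other side of WT in that comparison. In that comparison 0 of the 46 had an adjusted p under 0.05, beside 0.0614% of all genes, and 1 was higher and 7 were lower at an unadjusted p under 0.05, beside 7.54% and 8.38% of all genes. With the ribosomal share of each library as a covariate, 0 of the 46 had an adjusted p under 0.05, beside 0.0614% of all genes, and 2 were higher and 7 lower at an unadjusted p under 0.05, beside 9.44% and 8.61%.

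**Figure D5:**
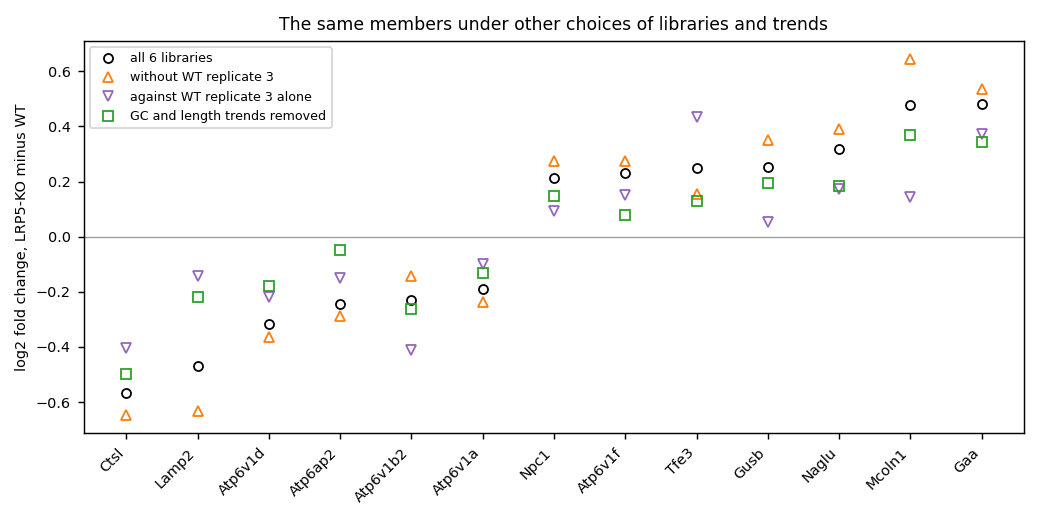
The 13 genes of unadjusted p under 0.05 under 4 choices. The y axis gives the log2 fold change between LRP5-KO and WT with all 6 libraries (circles), without WT replicate 3 (upward triangles), against WT replicate 3 alone (downward triangles) and after removal of the GC and length trends (squares). The side of 0 is fixed in advance for the 11 genes whose groups do not overlap when WT libraries are left out, so the sizes are what to read. Mcoln1 moves from 0.65 without WT replicate 3 to 0.15 against it alone.

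A further 63 genes of the lysosome outside the 46 were also examined. Of these, 51 were tested, none had an adjusted p under 0.05, and 10 were higher and 4 lower at an unadjusted p under 0.05, beside 14.4% and 9.12% of all genes tested. The median log2 fold change was 0.069, with 37 above 0 and 14 below. The 4 with the smallest p were Ctsc, Abca2, Cd164 and Slc36a1. Ctsc, the cathepsin that activates the granule serine proteases of neutrophils, was at 15.4, 13.2 and 13.8 TPM in WT and at 10.7, 9.71 and 9.73 TPM in LRP5-KO (log2 fold change of -0.46, adjusted p = 0.0651). Cd164, a sialomucin of lysosomes and endosomes, was at 267, 235 and 188 TPM in WT and at 143, 150.3 and 157 TPM in LRP5-KO (-0.60, adjusted p = 0.0804). Both were lower in every LRP5-KO library, and Abca2 and Slc36a1 were higher in every one. Slc36a1, a lysosomal exporter of amino acids, was at 1.94, 2.32 and 2.21 TPM in WT and at 5.54, 2.88 and 6.07 TPM in LRP5-KO (0.84, adjusted p = 0.107). Abca2, a lipid transporter, was at 3.04, 3.61 and 4.12 TPM in WT and at 5.34, 5.4 and 5.99 TPM in LRP5-KO (0.52, adjusted p = 0.0765).

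Lysosomal genes are highly expressed in macrophages and osteoclasts and vary as neutrophils mature, so the markers of these cells are given beside them. Of 16 monocyte and macrophage markers, 11 were tested. Of these, 4 were higher and none lower at an unadjusted p under 0.05 (the complement genes C1qa, C1qb and C1qc, and Adgre1). The 11 had a median log2 fold change of 0.013, with 7 above 0 and 4 below. The summed level of the 16 was 843 to 1036 TPM in WT and 894 to 964 TPM in LRP5-KO. Ly6c2 alone was at 513 to 664 TPM over the 6 libraries, so that this sum cannot show changes of the markers of low level. C1qb was at 2.49, 2.45 and 2.68 TPM in WT and at 3.61, 3.73 and 4.13 TPM in LRP5-KO. Of 6 osteoclast markers 3 were listed at 0, and their sum was at most 1.46 TPM in any library. Of 13 markers of immature neutrophils 7 were higher at an unadjusted p under 0.05 (median 0.24). Their summed level was 6134 to 6803 TPM in WT and 6919 to 7230 TPM in LRP5-KO. Of 11 markers of mature neutrophils 6 were lower (median -0.21). Their summed level was 34609 to 37181 TPM in WT and 32976 to 33845 TPM in LRP5-KO. Over all genes tested, 14.4% were higher and 9.12% lower at that threshold, with a median of 0.040. The part of these cells and stages in the values of the lysosomal genes was not tested. In bulk samples fewer cells of a type and less RNA per cell cannot be told apart.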

How the data were processed

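Neutrophil RNA of 3 WT and 3 LRP5-KO libraries was analysed. The authors deposited TPM values (transcript levels scaled for gene length and for the sum of all genes of a library) for each library without pooling, and their methods name alignment to mm9. The submitters' processing notes name mm9 and DESeq2, and the tool that gave TPM is not given in the sources used here. A read summary that the authors deposited gives the count of total reads of each library and the percent of reads that are coding, intronic, ribosomal or on the expected strand. The labels describe a Percoll gradient and an mRNA kit, whereas the methods describe a sort on CD11b and Ly6G and a stranded total RNA kit, and which applies to these libraries cannot be told apart here.

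Because TPM is not a read count, log2(TPM + 1) was tested with limma 3.58.1 (R 4.3.3), with a mean-variance trend, for genes whose mean over the 6 libraries reached 1 TPM, and p-values were adjusted over the 9775 genes (Benjamini-Hochberg). Fold changes are on that log2 scale, which understates changes of low genes. Data were simulated with independent normal noise in each gene and no trend shared across a library. Their false calls need not match those of the real libraries, which have such trends. On these data the step called 45% of 200 genes changed by a log2 of 0.5, with 3 false calls. It called 93% of 200 genes changed by a log2 of 1, with 8 false calls. Changes of the size seen in the 46 genes can therefore be missed. Shares of reads were compared by exact permutation (Python 3.11.15, scipy 1.17.1). Depth is known only as total reads, so that no counting interval is given for a gene. Gene positions and GC content came from the GENCODE annotation of NCBIM37 (mm9), with a GC value for 89.7% of genes tested and for all 46 members, and promoters from RefSeq on GRCm38.p6. The gene identifiers were matched without their version.

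The members and the gene lists were chosen with earlier results of these data known. Per-library values are given for the 3 members of smallest p and the 2 of highest level in each role, for the 10 of smallest p overall and for both members of roles of 2, which makes 31 members, and for the 5 other lysosomal genes of smallest p, of which 1 is not reported here, Lrp5 and Lyz2. C1qb, S100a8 and Ly6g were added after their values were seen. The alternatives were another pseudocount, filter, scaling, variance model or covariate, GC and length trends removed by splines, and each library left out. Of the other marker lists examined, B cells (5 tested of 8, none higher or lower at an unadjusted p under 0.05), T and NK cells (2 of 9, 1 higher), erythroid cells (4 of 8, 1 lower) and eosinophils and basophils (3 of 9, 1 higher, also at an adjusted p under 0.05) were at a summed level of at most 57.0 TPM in any library, and of the neutrophil markers 2 were higher and 1 lower.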

Additional observations from a re-analysis of the deposited data

How the results depend on the processing

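Across the 18 alternatives, of 678 log2 fold changes, over 38 genes, 624 kept their direction and their side of an adjusted p of 0.05, 23 passed it where they had not, 1 no longer did (Lyz2 without a filter) and 30 reversed, and 27 of the 38 genes reversed under none. The number of members with an adjusted p under 0.05, 0 with all libraries, was 0 to 15 when each library was left out, with 15 only without WT replicate 3, and 2 after removal of the GC and length trends. It was 0 under the other 11 alternatives. The number higher at an unadjusted p under 0.05, 7 with all libraries, was 3 to 13 when each library was left out (13 without WT replicate 3, 3 without LRP5-KO replicate 2 or 3), 2 with the ribosomal share as a covariate and 1 against WT replicate 3 alone. Over all genes tested, 52 were called (26 higher), against 3 with no filter, 29 with a filter at 5 TPM, 96 (69 higher) after rescaling without the mitochondrial and the 20 most abundant genes, 6 with the ribosomal share as a covariate, 6 against WT replicate 3 alone, 430 with the GC and length trends removed, and 2 to 1920 with a library left out (18, 3 and 1920 without WT replicates 1, 2 and 3, and 2, 15 and 2 without LRP5-KO replicates 1, 2 and 3). Other lysosomal genes called were 5 with the GC and length trends removed and 0 to 10 with a library left out (10 without WT replicate 3, 1, Slc36a1, without LRP5-KO replicate 2). The deviations of same-numbered libraries from their group means correlated at 0.229, -0.0075 and 0.131, and those of other pairs at -0.213 to 0.0834. With 3 libraries in each group, these values cannot decide whether same-numbered libraries were paired. With the replicate number as a block 4 genes and 0 members were called.

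The median over all members, 0.034, was -0.0096 with median-ratio scaling (which put the protease median at -0.025), -0.041 against WT replicate 3 alone, -0.024 after removal of the GC and length trends and 0.0082 to 0.088 with a library left out. With those trends removed the membrane median was -0.047, the protease median -0.059 and the V0 median -0.012. Against WT replicate 3 alone the protease median was -0.041, the glycosidase median -0.070, the V0 median -0.087, the V1 median 0.022 and the median of other lysosomal genes -0.031. With the ribosomal covariate the glycosidase, V0 and V1 medians were -0.0099, -0.014 and -0.011, and those of all members, membrane proteins and proteases -0.0085, -0.00085 and -0.015. With a filter at a mean of 5 TPM, which drops Gaa, Naglu and Glb1, the glycosidase median was -0.059. With a library left out the glycosidase median was 0.075 to 0.25, the V0 median -0.0036 to 0.22, the membrane median -0.016 to 0.086, the lipid median 0.0051 to 0.12 and that of other lysosomal genes 0.034 to 0.15.

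Among genes with per-library values, directions reversed against WT replicate 3 alone for Ctsa (-0.040), Man2b1 (-0.068), Psap (-0.078), Tfeb (-0.17), Atp6v0a1 (-0.087), Atp6v0b (-0.057), Atp6v0c (-0.29) and Atp6v1g1 (0.091). In that comparison 7 further members reversed (Cd68, Ctsb, Ctss, Ctsz, Glb1 and Atp6v0d1, and Asah1, at 0.22). Directions reversed with the ribosomal covariate for Psap (-0.0040), Tfeb (-0.059), Atp6v0c (-0.16) and Atp6v1g1 (0.060). With the GC and length trends removed Atp6v0b was at -0.012, Atp6v0c at -0.044 and Atp6v0e at 0.059. Quantile normalization gave 0.030 for Ctsh, 0.021 for Grn and 0.0077 for Atp6v1g1, and rescaling gave 0.013 for Ctsh, 0.022 for Grn, 0.012 for Atp6v0e and 0.019 for Atp6v1g1. With a library left out Grn ran from -0.081 to 0.11, Atp6v0c from -0.10 to 0.28, Atp6v0e from -0.030 to 0.00068 and Atp6v1g1 from -0.057 to 0.017. The cause was not tested in any of these.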
